A study of Mus musculus with 34 samples.

Results

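The Zscan4 genes are a cluster of near-identical mouse genes, and all 6 named members, Zscan4a, Zscan4b, Zscan4c, Zscan4d, Zscan4e and Zscan4f, were found by symbol in each table of the series. They are 6 of 49686 rows in the zygote and late 2-cell tables and 6 of 51734 rows in the blastocyst table. The rows were found by name, with no threshold on their values. RNA had been sequenced from single mouse embryos whose zygotes were injected with mRNA for wild-type CHK1 (WT) or for the R442Q mutant of CHK1, the checkpoint kinase that restrains the cell cycle when DNA is damaged or incompletely copied. The WT groups held 5 zygotes, 4 late 2-cell embryos and 7 blastocysts, and the R442Q groups 6, 5 and 7. Zygotes and late 2-cell embryos carried the treatment label none, and blastocysts of both genotypes had been grown with 30 nM of a CHK1 inhibitor. Every group therefore came from zygotes injected with CHK1 mRNA, and the labels used here hold no uninjected embryo and no blastocyst without inhibitor. Whether injected mRNA lasted to the later stages was not tested. Strain and parental age are not given in the sources used here, and nothing says whether embryos of a group came from separate litters, so p-values measure the spread between these embryos only.

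Zscan4 proteins carry a SCAN domain, which mediates pairing with other proteins, and zinc fingers that bind DNA. In mouse embryos the genes are known for a burst of transcription at the 2-cell stage, when the embryo's own genome is switched on, and for silence afterwards. In embryonic stem cells they mark a transient 2-cell-like state and have been tied to telomere lengthening and to loss of DNA methylation. The homeodomain factor DUX is a known activator of the cluster, and DPPA2 and DPPA4 act upstream of DUX.

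The members lie on chromosome 7 of GRCm38, the assembly also called mm10, between positions 10794242 and 11402318, a span of 608.077 kb. In GENCODE M21 the genes are Zscan4a (ENSMUSG00000110097.1, chr7:10794242-10799057, minus strand), Zscan4b (ENSMUSG00000095339.2, chr7:10900740-10905050, minus), Zscan4c (ENSMUSG00000054272.6, chr7:11005745-11010547, plus), Zscan4d (ENSMUSG00000090714.10, chr7:11161374-11166159, minus), Zscan4e (ENSMUSG00000095936.3, chr7:11306378-11310682, minus) and Zscan4f (ENSMUSG00000070828.10, chr7:11397915-11402318, plus). The longest transcript of each has 4 exons. Zscan4b and Zscan4e have a coding length of 1515 bases, and Zscan4c, Zscan4d and Zscan4f one of 1518. GENCODE lists Zscan4a as an unprocessed pseudogene and Zscan4e as protein coding, and no RefSeq promoter was at hand for either. No other annotated gene overlaps a member, so reads from an antisense neighbour do not enter these rows by position.

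The copies are so alike that their levels can be told apart only in part. Aligned transcripts were between 96.6% identical (Zscan4b and Zscan4d) and 99.7% identical (Zscan4b and Zscan4e), with Zscan4c and Zscan4f at 99.6%. Of all stretches of 50 bases in a member's transcripts, the share found in no other annotated gene was 50.4% for Zscan4d, 36.4% for Zscan4a, 14.5% for Zscan4c, 13.2% for Zscan4f, 10.99% for Zscan4e and 9.88% for Zscan4b. Among the deposited counts, which are given to 2 decimals, 1 of 109 member values above 0 was exactly whole (0.917%), against 73.8% of all values above 0 in those tables. The split among members is an estimate by the authors' counting program, and the sum over the 6 members rests less on that split. Of 1515 coding positions aligned in all members, 72 differed between members (4.75%). The coding stretch with the most differences in 60 bases is shown to let the copies be compared. It lies in exon 4 of Zscan4c at chr7:11009072-11009131 on the plus strand, with the aligned bases of the other members beneath it and capitals at the 9 positions where members differ.
Zscan4a: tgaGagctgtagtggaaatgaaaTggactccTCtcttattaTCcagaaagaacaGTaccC
Zscan4b: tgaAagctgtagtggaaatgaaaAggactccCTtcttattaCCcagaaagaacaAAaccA
Zscan4c: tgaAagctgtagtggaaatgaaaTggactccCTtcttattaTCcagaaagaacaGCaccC
Zscan4d: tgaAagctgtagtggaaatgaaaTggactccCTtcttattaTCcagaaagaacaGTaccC
Zscan4e: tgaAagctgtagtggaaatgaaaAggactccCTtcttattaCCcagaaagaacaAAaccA
Zscan4f: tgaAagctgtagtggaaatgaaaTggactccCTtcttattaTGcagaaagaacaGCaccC
Zscan4b and Zscan4e read alike in this stretch, and Zscan4c and Zscan4f differ from each other at a single capital.

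RefSeq promoters of build GRCm38.p6 were at hand for Zscan4b, Zscan4c, Zscan4d and Zscan4f. They are shown so that the sequence before the start site can be compared among these 4 genes. Each line gives the 250 bases before the annotated start. Capitals mark TGATTCAA, the first 8 bases of the known DUX motif, and TATAAA, the core of a TATA box.
Zscan4b, chr7:10905051-10905300, minus strand: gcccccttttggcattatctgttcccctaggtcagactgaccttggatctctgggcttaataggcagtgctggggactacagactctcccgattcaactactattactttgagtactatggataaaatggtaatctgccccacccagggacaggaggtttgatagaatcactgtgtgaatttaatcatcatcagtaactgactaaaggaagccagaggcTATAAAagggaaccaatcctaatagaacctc
Zscan4c, chr7:11005495-11005744, plus strand: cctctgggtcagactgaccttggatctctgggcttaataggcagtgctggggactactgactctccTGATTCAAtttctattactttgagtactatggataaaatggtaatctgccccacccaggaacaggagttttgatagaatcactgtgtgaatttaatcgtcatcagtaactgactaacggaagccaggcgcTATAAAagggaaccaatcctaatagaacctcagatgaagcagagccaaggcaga
Zscan4d, chr7:11166149-11166398, minus strand: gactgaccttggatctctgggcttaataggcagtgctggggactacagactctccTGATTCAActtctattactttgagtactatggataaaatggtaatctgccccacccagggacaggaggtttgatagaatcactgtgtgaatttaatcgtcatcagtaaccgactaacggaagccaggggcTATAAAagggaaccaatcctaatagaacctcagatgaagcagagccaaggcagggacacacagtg
Zscan4f, chr7:11397665-11397914, plus strand: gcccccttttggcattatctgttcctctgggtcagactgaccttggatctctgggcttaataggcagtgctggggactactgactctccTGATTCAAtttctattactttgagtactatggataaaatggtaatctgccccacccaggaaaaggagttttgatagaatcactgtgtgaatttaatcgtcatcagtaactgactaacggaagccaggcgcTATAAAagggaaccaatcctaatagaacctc
Each pair of these promoters was 95.3% to 99.3% identical over its aligned bases. Both strands of the 300 bases from 250 before to 50 after the start were searched. TGATTCAA was found 184 bases before the start of Zscan4c, 195 before Zscan4d and 161 before Zscan4f, and these letters are not in the Zscan4b window. Of 32851 mouse promoters of the same length, 191 (0.581%) held TGATTCAA on either strand. The full DUX motif, which begins with these letters, was in none of these 4 promoters and in 3 of the 32851 (0.00913%). TATAAA was present in all 4, as in 4473 of the 32851 promoters (13.6%), and it began 31 bases before the start in Zscan4b and Zscan4f, 54 in Zscan4c and 65 in Zscan4d. A match of letters is a description and not a shown binding site, and its part in the members' levels was not tested.

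Libraries held 7183632 to 11296522 estimated counts in zygotes and 5727956 to 8916343 in late 2-cell embryos, while blastocysts were given as FPKM (fragments per kilobase of transcript, scaled to library size) with depth unknown. No 2 embryos of a stage held identical values. Chek1, the gene of the injected mRNA, stood at 4593 to 8653 CPM (counts scaled to a library total of 1000000) in WT and 5597 to 7171 CPM in R442Q zygotes, and at 396 to 675 and 259 to 720 CPM in the late 2-cell groups, which says nothing of the mutation itself. Summed levels of 10 oocyte genes were 8937 to 11875 CPM in WT and 5947 to 9087 CPM in R442Q zygotes, and 1120 to 2856 against 1475 to 4516 CPM in late 2-cell embryos. In the blastocysts, 7 trophectoderm genes summed to 1250 FPKM or more in every embryo. The 8 cumulus cell genes summed to 25.5 to 45.5 CPM in zygotes and to 36.3 CPM or less in every late 2-cell embryo. Of the 8, 5 were above 0 in some WT zygotes and 7 in some R442Q zygotes. Cyp19a1 stood at an average log2 CPM of 5.05 over the zygotes. Ptx3, Inha and Amh were at 0 in all WT zygotes and Amh at 0 in all R442Q zygotes.

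Zscan4 transcripts were already present at low level in WT zygotes and were several times higher in R442Q zygotes. The 5 WT zygotes held 14.3, 10.92, 4.74, 10.97 and 7.37 CPM summed over the family, from 37.6 to 115.7 estimated counts. The 6 R442Q zygotes held 82.7, 220.3, 19.7, 23.6, 32.4 and 39.7 CPM, from 187 to 1617 estimated counts. All 6 R442Q zygotes lay above all 5 WT zygotes, and replicate 2 lay far above the other R442Q zygotes. Means were 9.66 ± 3.68 CPM (SD, n = 5) and 69.7 ± 77.2 CPM (SD, n = 6), a ratio of 7.22, while the ratio of medians was 3.30. The summed row was higher in R442Q by 2.98 ± 0.57 on the log2 scale (± SE throughout for log2 fold changes; edgeR quasi-likelihood test, Benjamini-Hochberg adjusted p = 0.0029 over all rows). Without replicate 2 the log2 fold change was 2.17 (adjusted p = 0.0023 by edgeR), a fold of 4.51 in place of 7.89. Over all 12420 tested rows the CPM of the groups did not overlap, with R442Q higher, in 2.54%.

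**Figure D1:**
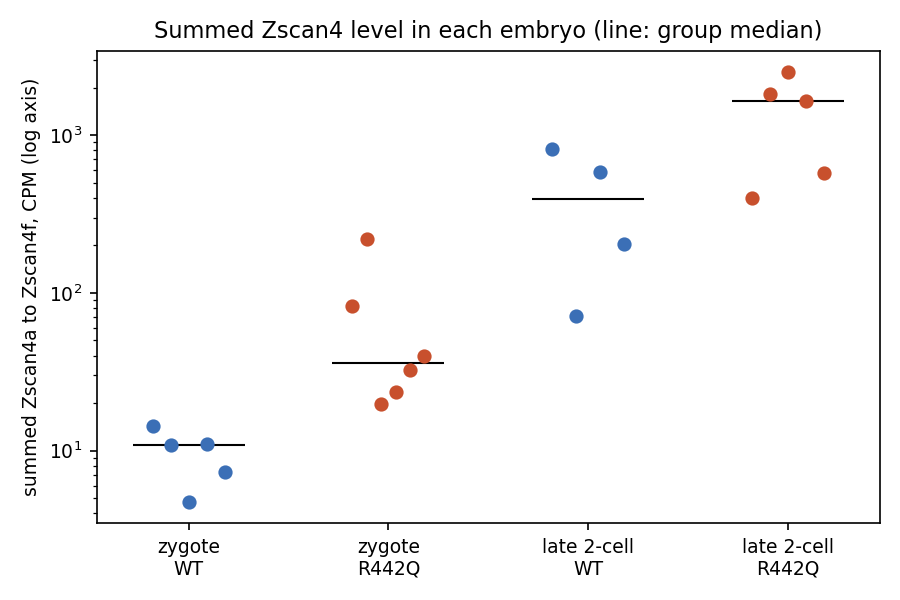
Summed CPM of Zscan4a to Zscan4f in each zygote and late 2-cell embryo on a log axis, 1 point per embryo in the order of its replicate number, with a line at the group median. R442Q zygotes sit from 19.7 to 220.3 CPM, above the WT zygotes at 4.74 to 14.3 CPM, and the late 2-cell groups overlap.

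Zscan4c, Zscan4d and Zscan4f carried the difference in zygotes, and Zscan4b did not pass the test. Of the 6 members, 4 had enough counts to be tested in zygotes, and 3 were called higher in R442Q at an adjusted p under 0.05, where 13.2% of all tested rows were called in either direction and 6.30% were called higher. Zscan4c and Zscan4f fell under the filter's level (a minimum count of 10, scaled to library size) in most WT zygotes. They passed it through the R442Q zygotes, where they were higher, so this count is not independent of the direction. Zscan4c, a protein-coding copy best known from work in embryonic stem cells, stood at 2.97, 0.716, 0.512, 1.90 and 0.153 CPM in the WT zygotes. In R442Q zygotes Zscan4c ranged from 4.09 through a median of 5.30 to 38.4 CPM. No R442Q zygote was as low as any WT zygote for Zscan4c, and the log2 fold change was 3.52 ± 0.74 (edgeR adjusted p = 0.0053).

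Zscan4d, the copy known as the main one of 2-cell embryos, stood at 7.39, 6.41, 1.86, 7.59 and 3.43 CPM in WT zygotes. In R442Q zygotes it ranged from 9.54 through a median of 18.3 to 63.5 CPM. Again the groups did not overlap, and Zscan4d rose by 2.43 ± 0.49 on the log2 scale (edgeR adjusted p = 0.0040). Zscan4f, a further protein-coding copy, stood at 1.23, 0, 0.193, 0.696 and 1.34 CPM in WT zygotes. Its R442Q values ran from 1.70 through a median of 7.83 to 59.2 CPM, all above the WT values. The difference for Zscan4f was the largest among the tested members, at 4.65 ± 0.87 (edgeR adjusted p = 0.0025). Without R442Q replicate 2 the log2 differences were 3.63 for Zscan4f, 2.81 for Zscan4c and 1.97 for Zscan4d, with edgeR adjusted p-values from 0.0039 to 0.013. Without WT replicate 1 the difference for Zscan4c was 4.16 (edgeR adjusted p = 0.0063).

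Zscan4b stood at 2.12, 2.93, 1.71, 0.788 and 2.21 CPM in WT zygotes and at 1.25 to 9.40 CPM, median 2.08, in R442Q zygotes. The groups overlapped, the medians were nearly equal (ratio 0.981), and the log2 difference of 0.83 ± 0.53 did not pass (edgeR adjusted p = 0.347). Zscan4a and Zscan4e had too few counts to pass the filter. Zscan4a stood at 0.586, 0.859, 0.465, 0 and 0.228 CPM in WT and at 0 to 29.6 CPM, median 2.56, in R442Q zygotes. The Zscan4a groups overlapped, with 4 of 6 R442Q zygotes above all WT zygotes. Zscan4e had no count in any of the 5 WT zygotes and 1.01, 20.2, 0, 0.239, 0.489 and 0.623 CPM in the R442Q zygotes. Taking 3 counts in each WT library as the limit that a count of 0 allows, a mean of 0.368 CPM, Zscan4e was at least 10.2-fold higher in R442Q. That bound was at least 1.29-fold without replicate 2, and 4 of the 6 R442Q zygotes exceeded 3 counts. With no filter on low counts, 5 of 6 members were called higher, all but Zscan4b, where 861 of 28656 rows (3.0%) were called higher, with Zscan4a at 3.98 ± 0.70 (edgeR adjusted p = 1.6e-05). The mean of Zscan4a in R442Q zygotes was 3.12 FPKM with replicate 2 and 0.970 FPKM without it, against 0.204 FPKM in WT. These unfiltered calls were not tested without replicate 2.

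Late 2-cell embryos held far more Zscan4 RNA in both genotypes, and embryos of the same genotype differed widely. The 4 WT embryos held 821, 70.9, 579 and 204 CPM summed over the family. The 5 R442Q embryos held 396, 1831, 2500.4 and 1632 CPM in replicates 1 to 4 and 573 CPM in replicate 5. WT replicates 2 and 4 lay below every R442Q embryo and R442Q replicates 2, 3 and 4 lay above every WT embryo, but WT replicates 1 and 3 exceeded R442Q replicates 1 and 5, so the groups overlapped, where 3.67% of all tested rows did not overlap with R442Q higher. Means were 419 ± 344 CPM (SD, n = 4) and 1386 ± 886 CPM (SD, n = 5), a ratio of 3.31. The log2 difference of 1.82 ± 0.63 did not pass at an edgeR adjusted p of 0.115, and it passed without the filter on low counts (1.75, adjusted p = 0.014) and by DESeq2 (1.82, adjusted p = 0.014).

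By member, no difference between late 2-cell genotypes passed the edgeR test: 0 of 6 were called, against 1.22% of 13883 rows called higher and 4.18% called in either direction. At an unadjusted p under 0.05 there were 4 of the 6, Zscan4a, Zscan4b, Zscan4c and Zscan4f, against 10.2% of all rows on that side. Without the filter 3 members were called (Zscan4a, Zscan4c and Zscan4f), where 0.927% of 26742 rows were called higher. DESeq2 called 1, Zscan4a, where 6.59% of the 11166 rows with an adjusted p were called higher. All 6 estimates were on the side of R442Q, from 1.28 ± 0.67 for Zscan4d to 2.99 ± 1.40 for Zscan4e, with adjusted p-values from 0.0783 to 0.299 by edgeR. Zscan4f, the most abundant member at this stage, stood at 189, 14.1, 196 and 48.6 FPKM in WT. The R442Q embryos held 72.1, 539.7, 1188, 533 and 182 FPKM of Zscan4f. Here too 3 of 5 R442Q embryos exceeded all WT embryos and 2 of 4 WT embryos lay below all R442Q embryos.

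**Figure D2:**
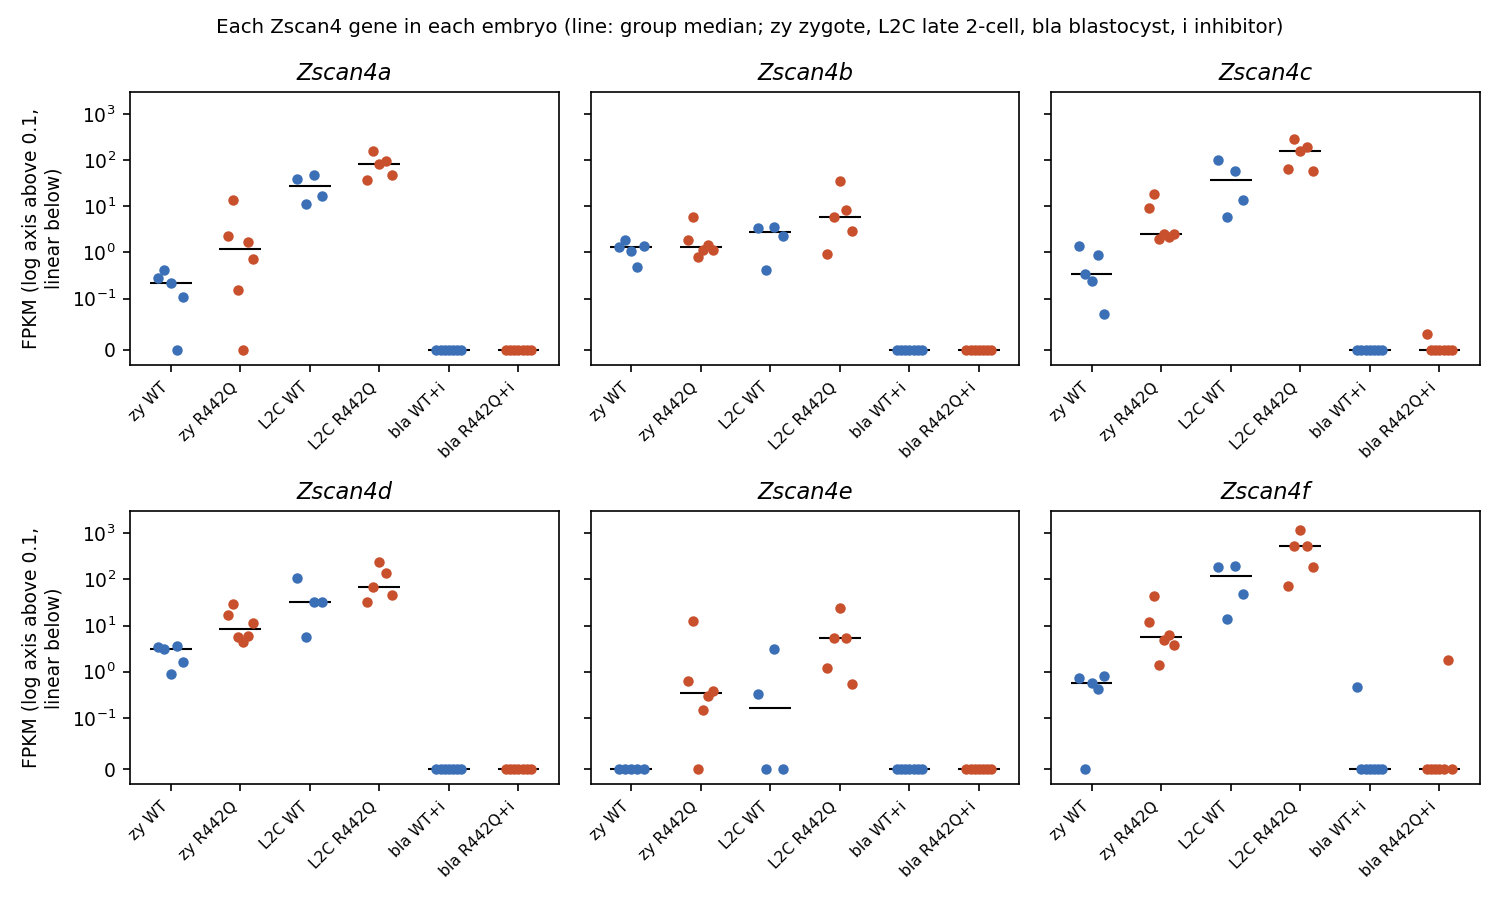
FPKM of each Zscan4 gene in each embryo of the 6 groups, with a log axis above 0.1 FPKM, a linear one below it and a line at the group median. Zscan4b medians are nearly level between the zygote groups, the highest value of each member is in a late 2-cell embryo, and 11 of 14 blastocysts sit at 0 for every member.

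From zygote to late 2-cell stage the summed row rose in both genotypes. The 2 stages were deposited separately with no library in common, so stage and any difference in handling between them cannot be told apart. In WT it rose by 5.20 ± 0.74 on the log2 scale (edgeR adjusted p = 2.3e-06), and all 4 late 2-cell embryos lay above all 5 zygotes. In R442Q it rose by 4.12 ± 0.63 (edgeR adjusted p = 5.4e-06), and all 5 late 2-cell embryos lay above all 6 zygotes. In WT 5 of 6 members were called higher at the late 2-cell stage, where 36.2% of 16199 rows were called higher and 32.1% had groups that did not overlap in that direction. Zscan4f rose by 7.61 ± 1.05, Zscan4a by 7.03 ± 1.11, Zscan4c by 6.20 ± 0.91 and Zscan4d by 4.04 ± 0.70 on the log2 scale. Zscan4e, with no count in WT zygotes, also passed (edgeR adjusted p = 0.020), and its late 2-cell mean of 1.44 CPM was at least 3.91-fold higher than 3 counts per zygote library. Call and bound rested on 1 embryo, since without late 2-cell WT replicate 3 the edgeR adjusted p was 0.242 and the mean of 0.181 CPM lay under that limit of 0.368 CPM. Without late 2-cell WT replicate 1 the WT rise was 5.31 for Zscan4c and 3.04 for Zscan4d, and without zygote WT replicate 1 it was 6.82 for Zscan4c, all still called.

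Zscan4b did not pass in WT (0.88 ± 0.80, edgeR adjusted p = 0.341). In R442Q 5 of 6 members were called higher as well, where 35.3% of rows were called higher and 23.4% did not overlap. Zscan4f rose by 5.00 ± 0.80, Zscan4a by 4.59 ± 0.84, Zscan4c by 4.47 ± 0.73, Zscan4d by 2.83 ± 0.60 and Zscan4b by 2.12 ± 0.72. Without zygote R442Q replicate 2 the rises were larger, at 5.94 for Zscan4f, 6.18 for Zscan4a, 5.11 for Zscan4c and 4.82 for the sum. For Zscan4b the call in R442Q was lost without late 2-cell replicate 3 (1.05, edgeR adjusted p = 0.177). Zscan4e, at 1.35 ± 1.31, did not pass in R442Q (edgeR adjusted p = 0.374), and it passed without zygote R442Q replicate 2 (4.20, adjusted p = 0.0095).

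These stage comparisons share their libraries with the comparisons of genotype. The R442Q effect on the summed row was not shown to differ between the stages: the late 2-cell effect minus the zygote effect was -1.08 ± 0.87 (edgeR adjusted p = 0.475). No member passed this test of the difference, where 10.1% of 16199 rows were called, 3.07% with a higher and 7.05% with a lower late 2-cell effect, and at an unadjusted p under 0.05 there was 1, on the side of 15.6% of all rows, Zscan4f (-2.61 ± 1.20, edgeR adjusted p = 0.179). Without zygote R442Q replicate 2 it was -1.47 for Zscan4f, at an unadjusted p of 0.170, and -0.29 for the sum.

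**Figure D3:**
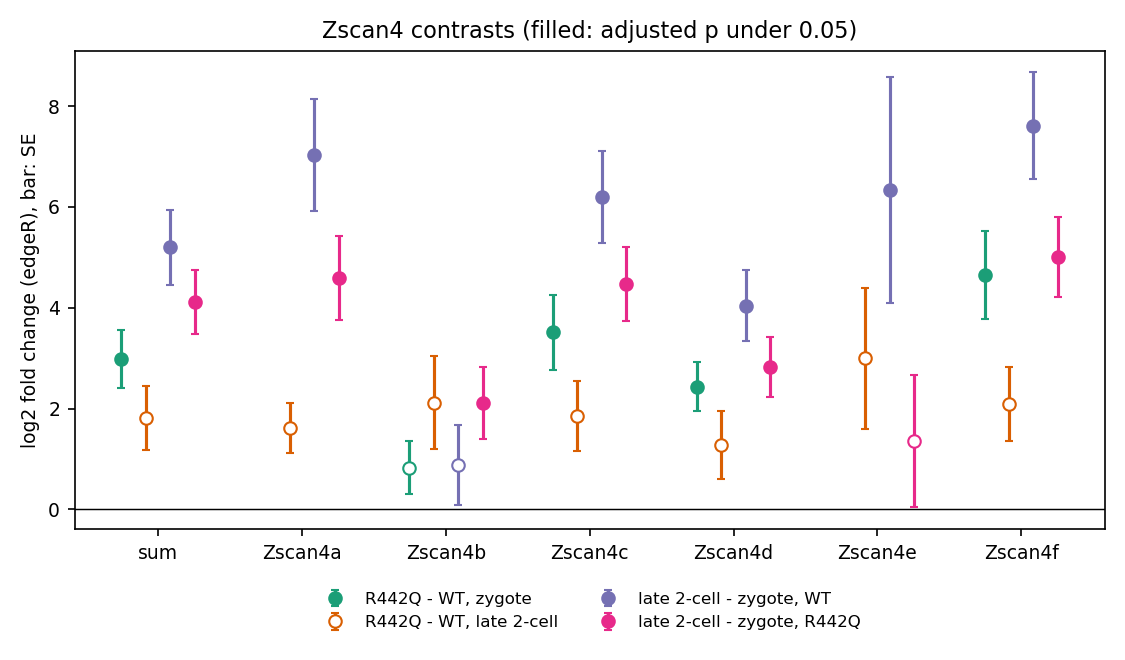
Log2 fold change with SE for the summed row and each member in 4 comparisons, filled where the edgeR adjusted p was under 0.05. The WT stage differences run from 0.88 for Zscan4b to 7.61 for Zscan4f, and every estimate lies above 0.

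The member with the largest share of the family's FPKM, which is per length, differed between the stages, and the tally depended on the deposited unit. Zscan4d held the largest share of the family's FPKM in 7 of 11 zygotes, Zscan4f in 3 and Zscan4b in 1. Its share in zygotes had a median of 40.5% and ran from 24.0% to 66.5%. Zscan4f held the largest share in 9 of 9 late 2-cell embryos, with a median of 50.4% and a range of 34.8% to 68.7%. By estimated count, which is not per length, Zscan4d held the largest share in 11 of 11 zygotes. By count Zscan4f held it in 6 of 9 late 2-cell embryos, with a median of 37.8%, and Zscan4a, Zscan4c and Zscan4d in 1 each. The shares are those of the authors' estimates among near-identical copies.

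In WT zygotes the order of mean FPKM was Zscan4d (2.52), Zscan4b (1.23), Zscan4c (0.588), Zscan4f (0.504), Zscan4a (0.204) and Zscan4e (0). Zscan4d exceeded Zscan4b in 4 of 5 of these zygotes, and Zscan4b exceeded Zscan4c, and Zscan4c exceeded Zscan4f, in 3 of 5. In R442Q zygotes the order was Zscan4d (12.4), Zscan4f (12.0), Zscan4c (6.05), Zscan4a (3.12), Zscan4e (2.37) and Zscan4b (2.04). Zscan4d and Zscan4f could not be ordered there in FPKM, since each was higher in 3 of 6, although the estimated count of Zscan4d was the higher in all 6, while Zscan4c exceeded Zscan4a in 6 of 6. Both Zscan4a and Zscan4e ranked above Zscan4b in that mean through 1 embryo, replicate 2. Without it the means were 1.27 FPKM for Zscan4b, 0.970 for Zscan4a and 0.294 for Zscan4e, and Zscan4a exceeded Zscan4b in 3 of 6 zygotes.

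In WT late 2-cell embryos mean FPKM were Zscan4f 112, Zscan4c 45.1, Zscan4d 43.9, Zscan4a 28.9, Zscan4b 2.41 and Zscan4e 0.875. In R442Q late 2-cell embryos they were Zscan4f 503, Zscan4c 152.9, Zscan4d 103.9, Zscan4a 84.7, Zscan4b 10.8 and Zscan4e 7.32. Zscan4f exceeded Zscan4c in every late 2-cell embryo and Zscan4a exceeded Zscan4b in every one, whereas Zscan4c against Zscan4d was 2 of 4 in WT and 4 of 5 in R442Q. Zscan4d exceeded Zscan4a in 2 of 4 WT and 2 of 5 R442Q embryos, so the middle of the order was not settled.

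Zscan4b made up 9.12% to 36.0% of the family in WT zygotes and 4.32% to 8.63% in R442Q zygotes, so every R442Q zygote had a lower Zscan4b share of FPKM than every WT zygote. By estimated count the ranges met, at 7.18% to 36.1% in WT and 3.60% to 7.67% in R442Q zygotes. By the late 2-cell stage the FPKM share was 0.454% to 2.08% in all 9 embryos. No test was made of these shares, which follow from the members' own levels given above.

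**Figure D4:**
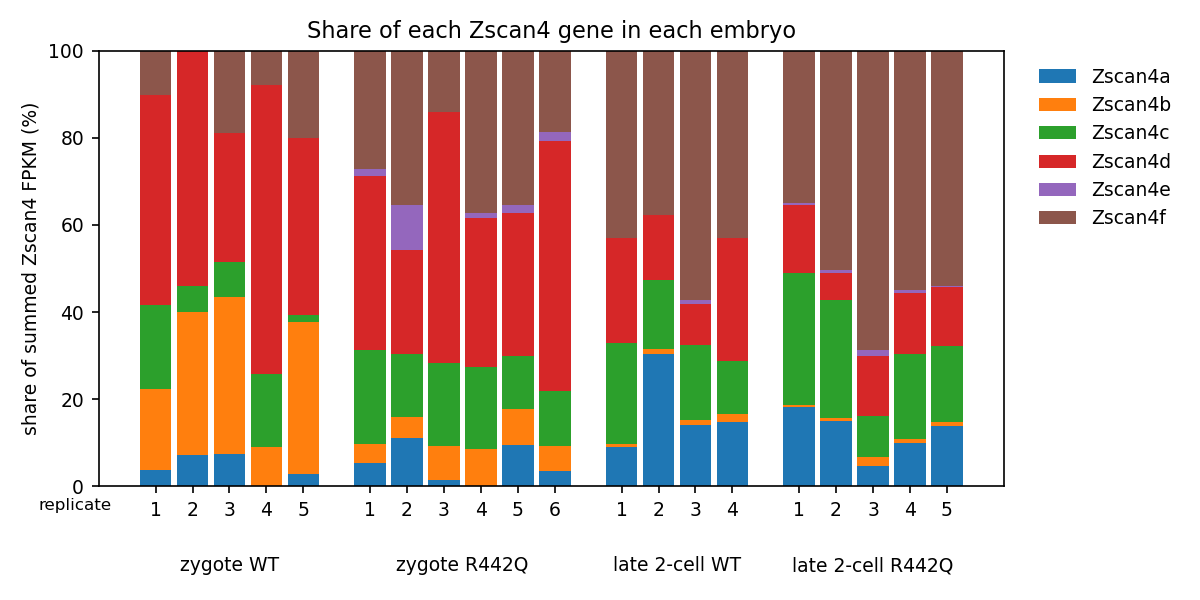
Share of each member in the summed Zscan4 FPKM of each zygote and late 2-cell embryo, as stacked bars that add to 100%. By this unit Zscan4d is the largest piece in 7 of 11 zygotes and Zscan4f in 9 of 9 late 2-cell embryos, and the Zscan4b piece shrinks from 9.12% or more in WT zygotes to 2.08% or less at the late 2-cell stage.

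Members rose and fell together across embryos. Over the 9 late 2-cell embryos, Pearson's r between the log2 CPM of pairs of members ran from 0.705 to 0.967 with a median of 0.864. Over the 11 zygotes it ran from 0.604 to 0.949 with a median of 0.834. These correlations are descriptions, since the genotypes differ in level and near-identical copies share reads. In R442Q late 2-cell replicate 3, the summed FPKM ranked 43 among the rows of that embryo, and in WT replicate 2 it ranked 2889.

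In blastocysts, all of which had been grown with the inhibitor, the family was listed at or near 0. Zscan4f was 0.47 FPKM in WT replicate 1 and 1.77 FPKM in R442Q replicate 6, and Zscan4c was 0.03 FPKM in R442Q replicate 1. All other member values in the 14 blastocysts were 0, and Zscan4a, Zscan4b, Zscan4d and Zscan4e were listed at 0 in all 14. No member and not the sum reached 1 FPKM in 7 of 14 embryos, so none was tested; 1 of the 11297 rows that were tested passed by limma, which is 0.00885%. Blastocyst values were deposited separately and only as FPKM. Since inhibitor was added only to blastocysts, stage and inhibitor cannot be told apart here.

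A list of 61 genes known for 2-cell-stage expression, such as the Usp17l deubiquitinase genes and the zinc finger gene Zfp352, was set beside Zscan4. Of 56 list genes with a row, 36 were tested in zygotes, and 21 were called higher in R442Q zygotes and 1 lower, where 6.30% and 6.92% of all rows were, with a median log2 difference of 2.30 against 0.01 over all 12420 rows. Without the filter on low counts 26 were higher and 1 lower of 54 tested, where 861 of 28656 rows (3.0%) were called higher. Genes of the list with the smallest p were Gm6763 (3.63 ± 0.40), Gm20765 (3.35 ± 0.42), Gm4027 (3.99 ± 0.61), Ubtfl1 (4.80 ± 0.75) and the deubiquitinase gene Usp17la (2.75 ± 0.43), with edgeR adjusted p-values from 0.00013 to 0.00086. Gm6763 went from 2.15 to 5.13 CPM in WT to 19.6 to 96.2 CPM in R442Q zygotes. The list was drawn up with earlier results of these data known and holds gene families whose copies share reads, so its count is not independent evidence of a direction.

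Of 10 oocyte genes, 4 were called lower in R442Q zygotes (Zp3, Ooep, Mos and Zp1), where 6.92% of all rows were called lower, and 6 did not pass, with a list median of -0.59. Ooep, part of the complex beneath the oocyte membrane, was 1661 to 2549 CPM in WT and 729 to 1328 CPM in R442Q zygotes. The part of these genes in the Zscan4 difference was not tested.

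In late 2-cell embryos 1 of 55 tested genes of the 2-cell list was called higher in R442Q by edgeR and none lower, where 1.22% and 2.95% of all rows were. At an unadjusted p under 0.05 there were 17 higher and 1 lower, where 10.2% and 10.7% of all rows were. The list's median was 1.01 against 0.07 over all 13883 rows, and 50 of 55 estimates were above 0. The count called higher was 8 of 56 without the filter, where 0.927% of all rows were, and 10 by DESeq2, where 6.59% were. Of the 10 oocyte genes, 1 was called higher and 0 lower in R442Q late 2-cell embryos, where 1.22% and 2.95% of all rows were. It was Ooep, at 99.8 to 265 CPM against 30.4 to 52.9 CPM in WT. At an unadjusted p under 0.05 there were 4 higher and 0 lower oocyte genes, where 10.2% and 10.7% of all rows were. The oocyte median was 0.77, with 9 of 10 estimates above 0, where the zygote median was -0.59. From zygote to late 2-cell stage, 47 of 56 genes of the 2-cell list were called higher in either genotype, where 36.2% of all rows in WT and 35.3% in R442Q were, and 4 were called lower in WT and 3 in R442Q, with medians of 5.99 in WT and 4.56 in R442Q against 0.34 and 0.22 over all rows.

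Among genes named as regulators of Zscan4 or of the 2-cell-like state, 7 of 26 were called lower and 1 higher in R442Q zygotes, where 6.92% and 6.30% of all rows were, with a median of -0.14. Tbx3, a T-box factor reported to act on Zscan4 in stem cells, rose by 1.32 ± 0.27, from 7.43 to 11.7 CPM in WT to 10.4 to 31.6 CPM in R442Q. Dnmt1, the maintenance DNA methyltransferase, fell by 1.29 on the log2 scale, from 381 to 788 CPM in WT to 162 to 323 CPM in R442Q. L3mbtl2 of a Polycomb-related complex (-1.25 ± 0.21), the histone methyltransferase gene Setdb1 (-0.71 ± 0.12) and the nucleolin gene Ncl (-0.79 ± 0.15) were lower as well, with edgeR adjusted p-values from 0.0011 to 0.0024.

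The row for the Dux gene, listed as Duxf3, was picked out after its values were seen. It stood at 15.2, 12.4, 32.9, 18.3 and 5.92 CPM in WT zygotes and at 14.5 to 51.0 CPM in R442Q zygotes, of which all but replicate 2 held 23.2 CPM or more. The groups overlapped, and the log2 difference of 1.03 ± 0.35 did not pass (edgeR adjusted p = 0.0643). R442Q replicate 2, the zygote with the most Zscan4, had the lowest Duxf3 of its group. In late 2-cell embryos Duxf3 had fallen to 5.21 CPM or less in every embryo, by 4.84 in WT and by 4.89 in R442Q on the log2 scale (edgeR adjusted p = 0.00055 and 9.6e-05). Of 27 regulators tested between the stages, 12 were called higher and 9 lower in WT, where 36.2% and 25.0% of all rows were. In R442Q 12 were called higher and 11 lower, where 35.3% and 29.8% of all rows were. Obox3 was higher at the late 2-cell stage (5.91 in WT and 6.18 in R442Q), while Obox5 (-4.17 and -3.06) and Setdb1 (-2.43 and -2.25) were lower. Dppa4 rose from zygote to late 2-cell stage by 4.81 ± 0.37 in WT and 5.75 ± 0.35 in R442Q, and its genotype difference did not pass at either stage (edgeR adjusted p = 0.839 in zygotes and 0.117 in late 2-cell embryos).

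In late 2-cell embryos 0 of 26 regulators were called higher by edgeR in R442Q and 2 lower (3 and 8 at an unadjusted p under 0.05), where 2.95% of all rows were called lower and 10.2% and 10.7% were higher and lower at that unadjusted p. L3mbtl2 was 130 to 195 CPM in WT and 29.2 to 71.9 CPM in R442Q (-1.74 ± 0.30, edgeR adjusted p = 0.011). Tbx3, higher in R442Q zygotes, was lower in R442Q late 2-cell embryos, at 19.0 to 57.4 CPM against 103 to 171 CPM in WT (-1.91 ± 0.36, edgeR adjusted p = 0.013). Its R442Q effect differed between the stages by -3.31 ± 0.46 (edgeR adjusted p = 0.00011).

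Among 25 genes for partners of Zscan4, DNA methylation and telomeres, 0 of 23 tested were called higher by edgeR in R442Q zygotes and 3 lower, where 6.30% and 6.92% of all rows were. At an unadjusted p under 0.05 there were 1 higher and 6 lower, where 13.4% and 13.7% of all rows were. The called genes were Dnmt1, the chromatin remodeller gene Atrx (-0.52 ± 0.15) and the telomere-binding factor gene Terf1 (-0.45 ± 0.14), with the latter pair at edgeR adjusted p-values of 0.030 and 0.045. In late 2-cell embryos 1 of 23 was called, against 4.18% of all rows, Mta2 of the NuRD complex, at 128 to 364 CPM in WT and 13.1 to 69.1 CPM in R442Q (-2.54 ± 0.48, edgeR adjusted p = 0.013). Between the stages 4 of 23 were called higher and 9 lower in WT, where 36.2% and 25.0% of all rows were. In R442Q 4 were called higher and 13 lower, where 35.3% and 29.8% of all rows were. The histone deacetylase gene Hdac1 rose by 4.69 ± 0.32 in WT and 4.54 ± 0.29 in R442Q, and Mta2 by 7.48 ± 0.80 and 3.05 ± 0.60. Uhrf1, which brings DNMT1 to DNA, fell by 3.28 in WT and by 3.97 in R442Q on the log2 scale.

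Other genes with a SCAN domain are given beside Zscan4 by their counts, with no test of the difference from it. Of 24 tested in zygotes edgeR called none higher and 1 lower, Zkscan14 (-0.71 ± 0.17, edgeR adjusted p = 0.011), with a list median of -0.09, where 6.30% and 6.92% of all rows were called. At an unadjusted p under 0.05 there were 2 higher and 2 lower, where 13.4% and 13.7% of all rows were. Of 29 tested in late 2-cell embryos edgeR called none higher and 3 lower, Zscan29 (-2.56 ± 0.51), Zfp263 (-1.90 ± 0.50) and Zkscan5 (-1.37 ± 0.36), where 1.22% and 2.95% of all rows were called. At an unadjusted p under 0.05 there were 0 higher and 5 lower, where 10.2% and 10.7% of all rows were. From zygote to late 2-cell stage 10 of 31 were called higher and 8 lower in WT, and 8 higher and 10 lower in R442Q, against 36.2% and 25.0% of all rows in WT and 35.3% and 29.8% in R442Q. Zscan5b rose by 7.18 ± 0.41 in WT and 7.15 ± 0.37 in R442Q, with edgeR adjusted p-values of 2.2e-12 and 3.9e-13, while Zkscan6 fell by 3.31 and by 3.54.

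**Figure D5:**
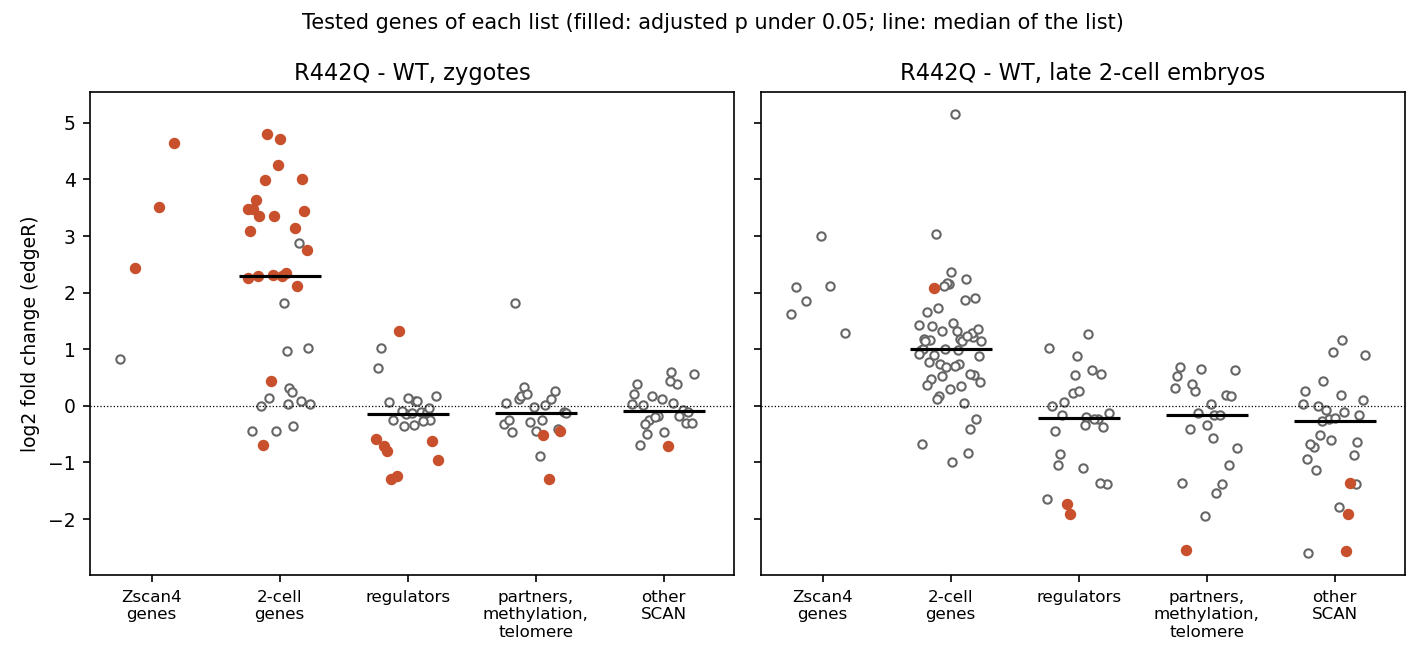
Log2 fold change of R442Q over WT for each tested gene of the family and of the 4 lists, in zygotes and in late 2-cell embryos, filled where the edgeR adjusted p was under 0.05, with a line at the median of each list other than the family. In zygotes 21 of 36 tested genes of the 2-cell list were called higher, where 6.30% of all rows were, and in late 2-cell embryos 1 of 55, where 1.22% were.

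Across embryos, the genes whose log2 CPM followed the summed Zscan4 value most closely were largely unnamed gene models. Over the 9 late 2-cell embryos these were Gm47985 (r = 0.991), Gm48578 (0.987), the translation factor gene Eif5a2 (0.975), the general transcription factor gene Gtf2b (0.972) and Gm20765 (0.965), out of 8518 genes compared. Genes of the 2-cell list had a median r of 0.684 there, against -0.06 over all genes compared, and 15 of 47 exceeded 0.8, as did 325 of the 8518. Over the 11 zygotes they were Gm7682 (0.944), Gm5890 (0.931), the histone methyltransferase gene Dot1l (0.930), the Polycomb gene Phc2 (0.925) and Gm9046 (0.922), out of 7186. The list's median in zygotes was 0.158 against -0.24 over all genes compared, with 5 of 17 over 0.8, as were 66 of the 7186. Within genotype, r stayed at 0.947 or more for the late 2-cell genes named and at 0.792 or more for the zygote genes. The points share genotype, depth and litter where any was shared, and no test was made of these r values.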

How the data were processed

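RNA of single embryos had been made into cDNA by SMART-seq2, cut with Tn5, prepared by Nextera and sequenced on a HiSeq X-10, per the labels' protocols. The zygote and late 2-cell tables hold estimated counts and FPKM, and the blastocyst table FPKM only, as the authors deposited them. RSEM and mm10 are named in the submitters' processing notes with no role given, and the aligner and annotation are not given in the sources used here. No column of the tables was left without a sample.

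Estimated counts were rounded, filtered (filterByExpr, minimum count 10), scaled by TMM and tested in edgeR 4.0.16 (R 4.3.3) by quasi-likelihood per stage, or with all 4 groups in 1 fit for stage and interaction, with Benjamini-Hochberg adjustment over all rows and a threshold of 0.05. For the summed row, 1 row with the members' sum replaced the 6 in the table. The SE is the log2 fold change divided by the root of F. CPM is a row's estimated count scaled to a library total of 1000000. Blastocysts were tested in limma 3.58.1 on log2(FPKM + 1), for rows with at least 1 FPKM in 7 of 14 embryos. A fold against groups at 0 used 3 counts per library, which covers counting error only.

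The members and the lists were chosen with earlier results of these data known. All members are named, and from each of 4 lists up to 5 called genes with the smallest p in a comparison, of which the text prints those on Zscan4's comparisons; the 5 genes most like the sum were taken from tested rows with a mean of at least 10 CPM, on log2(CPM + 1). A gene of the 2-cell list is counted but not reported here. Duxf3 and the oocyte genes Zp3, Ooep, Mos and Zp1 were named after their values were seen. The zygote and late 2-cell tables used here hold 0 rows for the 3 genes whose symbols call them Zscan4 pseudogenes, which GENCODE M21 types as protein coding. Coding stretches were aligned with mafft 7.526. DESeq2 1.42.0, other scalings, filters and pseudocounts, a GC and length trend, a replicate block and leaving out embryos were alternatives. The test scripts were checked on simulated counts.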

Additional observations from a re-analysis of the deposited data

Results flagged for a closer look

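A sample is given here where its gap to the nearest other embryo of its group took up most of the group's range, by Dixon's 95% critical value, which chance exceeds in about 1 in 20 groups. Of 32 combinations of a group and a member or the sum that were examined, 13 were picked out. Most belong to 1 zygote and 1 late 2-cell embryo, and values of members in the same embryo are not independent.

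R442Q zygote replicate 2 stood apart for Zscan4a at 29.6 CPM, where the other 5 R442Q zygotes held at most 4.99 CPM. It also stood apart for Zscan4b at 9.40 CPM (others at most 2.98), for Zscan4e at 20.2 CPM (others at most 1.01), for Zscan4f at 59.2 CPM (others at most 17.3) and for the sum at 220.3 CPM (others 19.7 to 82.7). Late 2-cell R442Q replicate 3 stood apart for Zscan4b at 56.4 CPM, where the others held at most 13.0, and for Zscan4e at 37.7 CPM, where the others held at most 8.55. Late 2-cell WT replicate 3 stood apart for Zscan4e at 5.21 CPM, with the other 3 at 0.543 CPM or less.

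In blastocysts the values picked out stood above others of their group at 0.03 FPKM or less. Zscan4f and with it the sum were 0.47 FPKM in WT replicate 1 and 1.77 FPKM in R442Q replicate 6, and Zscan4c was 0.03 FPKM in R442Q replicate 1. The cause of these values was not tested.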

How the results depend on the processing

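The summed Zscan4 row was called higher in R442Q zygotes under all 20 alternatives run other than the replicate block (given at the end and left out of the counts that follow), with log2 fold changes of 2.17 to 3.18 and adjusted p-values of 9.5e-13 to 0.028. In late 2-cell embryos it kept its direction under all 18 (1.45 to 2.32) and passed under 2 of them, no filter on low counts (1.75) and DESeq2 (1.82), and the cause was not tested. Leaving out 1 embryo gave 1.46 to 2.32, never past the threshold. The stage rises held under all 26 alternatives, at 4.65 to 5.49 in WT and 3.83 to 4.82 in R442Q. The interaction of the sum stayed below 0 and unpassed in 26 of 26. On log2(FPKM + 1) the interaction turned positive for Zscan4a (0.47), Zscan4c (0.39) and Zscan4e (0.81). In blastocysts the mean difference of the sum was 0.14 on log2(FPKM + 1) and 0.56 with a pseudocount of 0.01, which weighs values near 0 more. Leaving out 1 blastocyst gave -0.07 to 0.22, below 0 without R442Q replicate 6 alone, so its direction rests on that embryo. The number of rows called ran from 270 (1 fit of both stages) to 2093 in zygotes (1643 as reported), from 116 (length and GC trend removed) to 2507 (1 fit of both stages) in late 2-cell embryos (580 as reported) and from 1089 to 2446 for the interaction (1639 as reported), outside the replicate block. Same-numbered embryos did not vary together (r of -0.10 to 0.08 in zygotes and -0.21 to 0.28 in late 2-cell embryos by title number), so the numbers do not pair them, and the best match was the own number for 1 of 5 and 1 of 4. With the replicate block the sum gave 2.57 (title numbers) and 2.33 (description numbers) in zygotes, 2.38 and 2.53 in late 2-cell embryos (adjusted p = 0.170 and 0.301), 5.02 and 4.27 for the stages and -0.74 for the interaction, and it moved the late 2-cell count of rows called to 49 and 0, the zygote count to 983 by description numbers, and the interaction count to 1085. A sum with the genes named Zscan4 pseudogenes could not be run, since the zygote and late 2-cell tables used here have no such rows.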

Other observations

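Apart from Tbx3, several genes of the lists had an R442Q effect that differed between the stages by the same edgeR interaction test. Ubtfl1, a 2-cell-stage gene, was 0 to 0.452 CPM in WT and 0.814 to 9.81 CPM in R442Q zygotes, and 109 to 125 CPM in WT and 36.9 to 104 CPM in R442Q late 2-cell embryos. Its effect differed by -5.53 ± 0.79 (edgeR adjusted p = 0.00017). The zygote difference of 4.80 ± 0.75 was called, with WT values near the limit of 3 counts (a mean of 0.368 CPM). The late 2-cell difference of -0.68 ± 0.34 did not pass (edgeR adjusted p = 0.277). For the 2-cell list the late 2-cell effect was called above the zygote effect in 1 of 56 tested genes and below it in 5. Over all rows these shares were 3.07% and 7.05%. Among 27 regulators, Tbx3 included, 1 was above and 5 were below. Of 23 genes for partners, methylation and telomeres, and of 31 other SCAN genes, 2 each were below and 0 above. The 10 oocyte genes went the other way, with 5 above and 0 below.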
